A study of Mus musculus with 8 samples.

Results

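The *Rassf* genes of the mouse, *Rassf1* to *Rassf10*, were examined in pancreas buds with and without the Hippo kinases LATS1 and LATS2. Members were taken by gene name, and all 10 of the 10 names had a row among the 24341 genes of the expression table. The family was chosen with these data known. It is treated as picked by a measured value, the higher level of *Rassf9* in mutant buds. The differences between genotypes that follow are therefore descriptions, and no p-value of a member is used as support. The RNA came from 8 pancreas buds at E11.0 (about 40 somites), 5 labelled WT and 3 labelled Pdx1Creearly;Lats1f/f;Lats2f/f (*Lats1/2PanKO*), all recorded as CD1 strain, and each bud was sequenced as a library of its own. The Cre recombinase is driven by *Pdx1*, so deletion is directed at the pancreatic progenitor epithelium, while mesenchyme, vessels and blood left in a bud keep both kinases. According to the methods mutants were compared with WT or heterozygous littermates, and the mesenchyme was pulled off by hand before 35 ng of RNA was isolated.

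RASSF proteins are adaptors without enzyme activity that share a Ras-association domain, the fold through which effectors bind RAS- and RAP-type GTPases. RASSF1 to RASSF6, the classical members, end in a SARAH domain. This helix pairs with the same helix in the kinases MST1 and MST2 (genes *Stk4* and *Stk3*) and in their adaptor SAV1. MST1 and MST2 in turn phosphorylate LATS1/2. RASSF7 to RASSF10 carry the Ras-association domain at the N-terminus and lack the SARAH helix. They have been linked to cell junctions, centrosomes and membrane traffic more than to MST kinases. Several members, *Rassf1* above all, are silenced by promoter methylation in tumors.

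A regulatory sequence could be shown for part of the family. RefSeq promoter windows (GRCm38.p6, 250 bases before to 50 after the start) were at hand for 6 members with 7 windows, namely *Rassf1* (with 2 starts), *Rassf2*, *Rassf4*, *Rassf5*, *Rassf6* and *Rassf7*. The *Rassf5* window, chr1:131200136-131200435 on the minus strand, lies inside the gene, whose upstream end is at 131245178. The *Rassf7* window, chr7:141215610-141215909 on the plus strand, also lies inside the RefSeq gene, whose upstream end is at 141215425. No windows at these upstream ends were at hand, so they were not searched. The windows were searched on both strands for GGAATG, the core of the motif bound by TEAD factors, since TEAD factors carry the output of YAP1 and TAZ once LATS1/2 are gone. *Rassf2* was the only one with a match, at chr2:132030520-132030549 on the minus strand, 213 bases before the start. It is shown because it is the single match, with the motif in capitals:

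Rassf2: aggaggaggtgaGGAATGgacaaagaaact

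Of 32851 promoter windows of that length, 14.7% hold the motif on either strand, so 1 match in 7 windows is near that share. *Rassf2* was lower in mutant buds, as given below. *Rassf3*, *Rassf8*, *Rassf9* and *Rassf10* had no window in the table.

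The family spanned a wide range of levels in WT buds, measured as FPKM (fragments mapped to a gene, scaled by transcript length and by library size), a unit per length that allows genes to be compared. The order by WT mean was *Rassf8* (23.2 ± 2.53 FPKM, SD, n = 5), *Rassf3* (18.3 ± 0.999), *Rassf1* (8.47 ± 0.646), *Rassf7* (8.25 ± 1.11), *Rassf2* (3.74 ± 0.365), *Rassf4* (3.51 ± 0.355), *Rassf5* (1.69 ± 0.544), *Rassf9* (1.53 ± 0.145), *Rassf10* (1.34 ± 0.404) and *Rassf6* (1.26 ± 0.351). The order is firm only in steps. WT ranges of neighbours overlapped between *Rassf1* and *Rassf7*, between *Rassf2* and *Rassf4*, and throughout the lowest 4, but not between *Rassf8*, *Rassf3* and the pair below them. In *Lats1/2PanKO* buds *Rassf9* moved from place 8 to place 5 of the order and *Rassf2* from 5 to 8. *Rassf8* and *Rassf3* kept places 1 and 2.

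**Figure D1:**
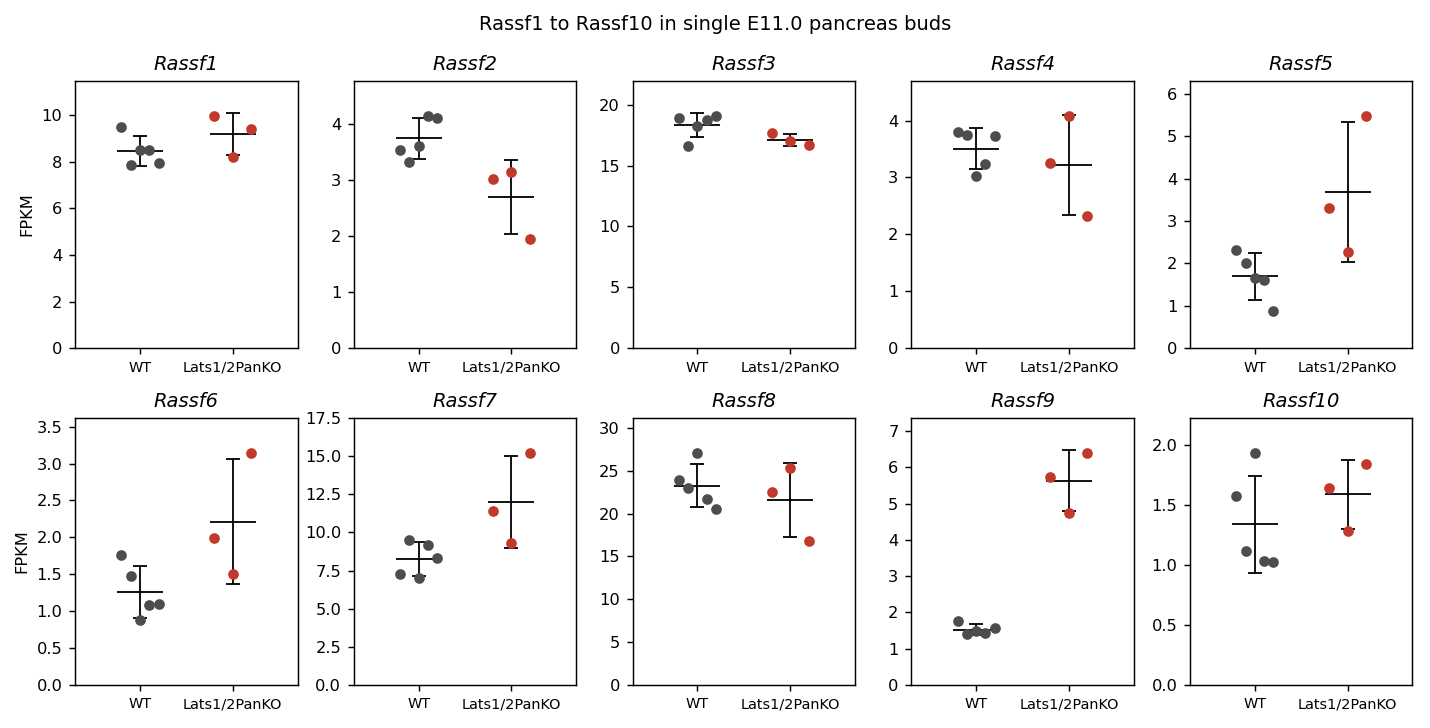
FPKM of each *Rassf* gene in 5 WT buds (grey points) and 3 Lats1/2PanKO buds (red points), with group means and SD as black bars and a y axis that starts at 0 in every panel. The 3 mutant values of Rassf9 (4.74 to 6.41 FPKM) stand clear of the WT range (1.40 to 1.76), those of Rassf2 (1.94 to 3.15) lie below the WT range (3.32 to 4.14), and the other 8 genes overlap.

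All 10 members passed the filter of a mean of at least 0.5 FPKM and were fitted with limma on log2(FPKM + 1) together with all 13777 genes that passed it. On that scale, which understates the change of genes at low levels, 6 of the 10 members had a positive log2 difference (*Lats1/2PanKO* minus WT), against 46.9% of all genes tested. The median difference was 0.13 over the members and -0.01 over all genes. By adjusted p (Benjamini-Hochberg over all genes tested, under 0.05), 1 member was called, *Rassf9*, beside 0.0145% (2 genes) of all genes. The difference behind that call is treated as the reason the family was picked. The call was lost without any one of WT replicates 1, 2, 3 and 5 or *Lats1/2PanKO* replicate 1. The log2 difference stayed between 1.30 and 1.49 with any single bud left out. An unadjusted p under 0.05 was reached by 5 members, 4 of them higher (*Rassf5*, *Rassf6*, *Rassf7* and *Rassf9*) and 1 lower (*Rassf2*), where 11.3% of all genes tested did so, 6.29% higher and 4.99% lower. All 3 mutant values lay above the WT range in 1 member, beside 4.46% of all genes, and below it in 1 member, beside 3.06%. Since the contrast led to the choice, nothing is read from these shares.

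**Figure D2:**
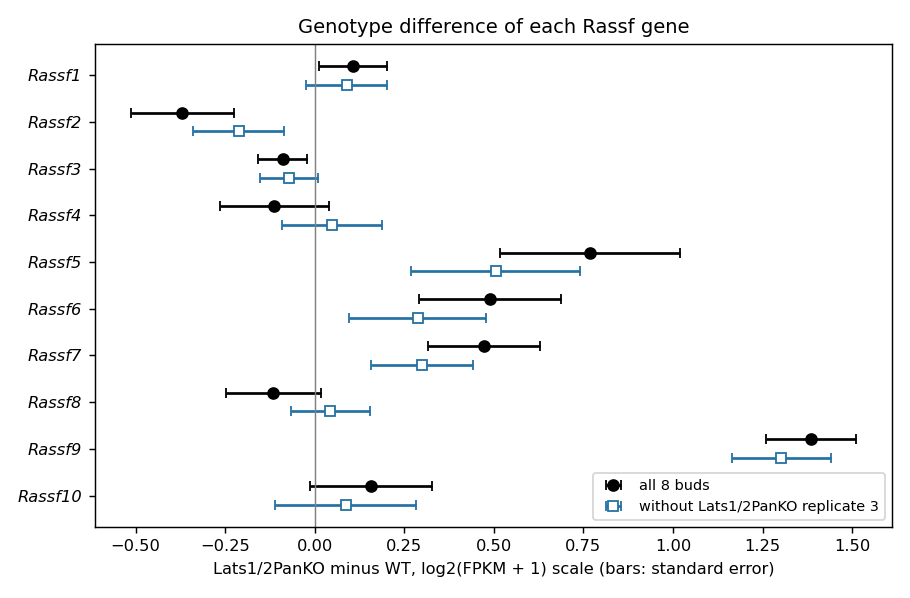
Difference between genotypes of each Rassf gene on the log2(FPKM + 1) scale with its standard error from limma, over all 8 buds (black circles) and without Lats1/2PanKO replicate 3 (open blue squares). Rassf9 is at 1.39 and 1.30, while Rassf5, Rassf6 and Rassf7 move toward 0 without that bud and Rassf4 and Rassf8 cross to small positive values.

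*Rassf9* encodes the member first found as a binding partner of PAM, the peptide-amidating enzyme of secretory granules, and is known in mice for a role in epidermal differentiation. Its FPKM in WT replicates 1 to 5 was 1.76, 1.40, 1.47, 1.42 and 1.57, and in *Lats1/2PanKO* replicates 1 to 3 it was 5.74, 4.74 and 6.41. The lowest mutant bud thus stood well above the highest WT bud. The group means were 1.53 ± 0.145 (SD, n = 5) and 5.63 ± 0.842 (SD, n = 3), a ratio of 3.69, and 3.43 without *Lats1/2PanKO* replicate 3. The log2 difference was 1.39 with a standard error of 0.13. An increase at least this large was seen in 96 of the genes tested, *Rassf9* included, or 0.697%. Its coefficient of variation was 9.51% over WT and 15.0% over mutant buds. The gene lies at chr10:102512222-102546560 (GRCm38), and the RefSeq annotation of the gene runs further, to position 102549737. The nearest genes tested on either side are far off, *Cep290* at 1922962 bases and *Tmtc2* at 2641103 bases. They differed by 0.08 (standard error 0.14) and -0.27 (standard error 0.25) on the log2 scale, with adjusted p of 0.878 and 0.753 from limma.

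*Rassf7*, *Rassf8* and *Rassf10* are the other N-terminal members. *Rassf7*, linked to mitosis and centrosomes, was at 7.30, 9.49, 6.99, 9.19 and 8.29 FPKM in WT replicates 1 to 5 and at 11.4, 9.31 and 15.2 FPKM in *Lats1/2PanKO* replicates 1 to 3. The groups overlapped through *Lats1/2PanKO* replicate 2, which sat inside the WT range, and replicate 3 was far above it. The log2 difference was 0.47 (standard error 0.16), and 0.30 (standard error 0.14) without *Lats1/2PanKO* replicate 3. *Rassf8*, a component of adherens junctions, was at 22.5, 25.4 and 16.8 FPKM in the mutant buds against a WT range of 20.5 to 27.1. Replicate 3 alone lay below the WT range, and the log2 difference passed from -0.12 (standard error 0.13) with all buds to 0.04 (standard error 0.11) without it. The locus of *Rassf8* in the authors' table spans 9202 bases, against 74519 in RefSeq, so the deposited locus covers part of the annotated gene. *Rassf10*, a single-exon gene silenced in several tumors, ranged from 1.03 to 1.94 FPKM in WT and was at 1.64, 1.28 and 1.84 FPKM in mutant buds, fully inside the WT range.

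The 4 N-terminal members had summed levels of 34.4 ± 2.27 FPKM (SD) over the 5 WT buds and 40.8 ± 0.485 FPKM (SD) over the 3 *Lats1/2PanKO* buds, with no overlap (31.4 to 37.5 against 40.3 to 41.3). *Rassf9*, whose difference is treated as the reason for the choice of the family, is part of this sum. Its means were 1.53 FPKM in WT and 5.63 FPKM in mutant buds. *Rassf7*, *Rassf8* and *Rassf10* each overlapped between genotypes, so the separation is not read as a trait of the N-terminal members. No sum without *Rassf9* was computed. WT replicate 3 had the highest WT sum, 37.5 FPKM, of which *Rassf9* was 1.47 FPKM. In mutant replicates 1 to 3 the sums were 41.3, 40.7 and 40.3 FPKM, of which *Rassf9* was 5.74, 4.74 and 6.41 FPKM. The sum of all 4 was similar in the 3 mutant buds although its parts were not. In replicate 3, which had the least *Rassf8*, *Rassf7* and *Rassf9* were highest. *Rassf9* made up 4.46% ± 0.550 of the sum in WT and 13.8% ± 2.12 in mutant buds, and the share of *Rassf8* was 67.5% ± 3.16 and 52.8% ± 10.4. Shares of a sum are tied, so a higher *Rassf9* or *Rassf7* lowers the share of *Rassf8*, whose FPKM overlapped between genotypes.

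**Figure D3:**
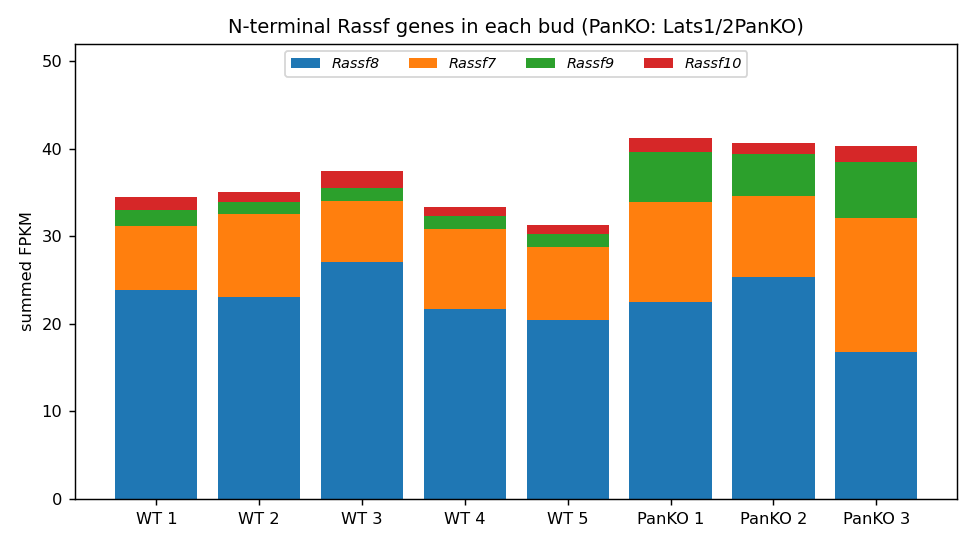
FPKM of Rassf8 (blue), Rassf7 (orange), Rassf9 (green) and Rassf10 (red) stacked for each of 5 WT and 3 Lats1/2PanKO buds (labelled PanKO), on an axis from 0. The 3 mutant totals, Rassf9 included, lie between 40.3 and 41.3 FPKM, above the highest WT total of 37.5. The green part for Rassf9 is wider in each of them.

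Among the classical members, *Rassf5*, *Rassf6* and *Rassf2* differed most. *Rassf5* encodes NORE1 and RAPL, effectors of RAS and RAP1 in growth control and lymphocyte adhesion. It was at 2.33, 2.00, 1.65, 1.60 and 0.868 FPKM in WT replicates 1 to 5 and at 3.31, 2.26 and 5.48 FPKM in *Lats1/2PanKO* replicates 1 to 3. The groups touched, with mutant replicate 2 just under WT replicate 1. Its log2 difference of 0.77 (standard error 0.25) was 0.50 (standard error 0.24) without mutant replicate 3, and its ratio of means, 2.18, was 1.65 there.

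*Rassf6*, whose protein binds MST kinases and promotes apoptosis, had WT values of 1.76, 1.47, 0.885, 1.09 and 1.09 FPKM and mutant values of 1.99, 1.50 and 3.15 FPKM. Mutant replicate 2 lay within the WT range. The log2 difference was 0.49 (standard error 0.20), and 0.29 (standard error 0.19) without mutant replicate 3.

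*Rassf2*, which encodes a nuclear RAS effector that stabilizes MST kinases, went the other way. WT replicates 1 to 5 were at 3.53, 3.32, 3.61, 4.14 and 4.10 FPKM, and mutant replicates 1 to 3 at 3.01, 3.15 and 1.94 FPKM. Every mutant bud was below every WT bud, by a narrow margin for replicates 1 and 2. The log2 difference was -0.37 (standard error 0.14), and -0.21 (standard error 0.13) without mutant replicate 3. After quantile normalization of the 8 columns *Rassf2* no longer lay outside the WT range, and *Rassf5* and *Rassf7* then lay above it.

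The remaining classical members differed by little. *Rassf3*, which acts on p53 through MDM2, was at 16.6 to 19.1 FPKM in WT and at 17.7, 17.0 and 16.7 FPKM in mutant buds, a log2 difference of -0.09 (standard error 0.07). *Rassf1*, the tumor suppressor of the family, was at 7.87 to 9.49 FPKM in WT and 9.97, 8.21 and 9.43 FPKM in mutant buds, a log2 difference of 0.11 (standard error 0.10). Its value joins transcripts from both of its starts, which a gene-level table cannot separate. *Rassf4* was at 3.02 to 3.80 FPKM in WT and at 3.25, 4.08 and 2.33 FPKM in mutant buds, on both sides of the WT range. Its log2 difference of -0.11 (standard error 0.15) became 0.05 (standard error 0.14) without mutant replicate 3, and the locus overlaps *8430408G22Rik*. Summed over *Rassf1* to *Rassf6*, the 5 WT buds held 37.0 ± 1.79 FPKM (SD) and the 3 mutant buds 38.2 ± 1.67 FPKM (SD), with overlapping ranges. The difference of 1.18 FPKM moved to 0.641 when mutant replicate 1 was left out and to 2.14 when mutant replicate 2 was. Within that sum the share of *Rassf3* was lower in each mutant bud, at 45.1%, 47.0% and 42.8%, than in WT buds, where it was 47.4% to 51.8%. The FPKM of *Rassf3* itself overlapped between genotypes.

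The counts outside the WT range leaned on single buds. With all buds 7.51% of all genes tested lay outside the WT range on either side. Without WT replicate 1, *Rassf5* and *Rassf6* joined *Rassf9* above the range, where 9.23% of all genes lay outside it. Without WT replicate 2, *Rassf7* did so and *Rassf3* joined *Rassf2* below it, where 10.5% of all genes lay outside. Without *Lats1/2PanKO* replicate 2, *Rassf5*, *Rassf6* and *Rassf7* all lay above the range, and 19.4% of all genes tested then lay outside it on either side. *Rassf9* stayed above and *Rassf2* below when any single bud was left out.

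Cell type markers differed between the same buds. In bulk samples fewer cells of a type and less RNA per cell cannot be told apart. The labelled pancreatic epithelium was present in every bud by its markers, and 12 of them (*Krt18* and *Krt8* the most abundant) summed to 240 to 311 FPKM in WT and to 542, 462 and 1110 FPKM in *Lats1/2PanKO* replicates 1 to 3. Of these 12, 10 had all mutant values above the WT range. Mesenchymal markers, 12 genes led by *Barx1* and *Col3a1*, summed to 640 to 879 FPKM in WT and to 502, 699 and 301 FPKM in mutant buds, and all 12 had a lower mutant mean on the log2 scale. Endothelial markers (10 genes, *Cdh5* and *Kdr* highest) summed to 131 to 222 FPKM in WT and 92.8 to 146 FPKM in mutant buds, and mesothelial markers (6 genes, *Bnc1* and *Wt1* highest) to 22.6 to 29.4 and 8.69 to 20.7 FPKM, with *Msln* listed at 0 in all 5 WT buds. Leukocyte markers (10 genes, *C1qb* and *Tyrobp* highest) were low in both, 11.97 to 26.3 and 20.5 to 28.6 FPKM in sum, with the defining *Ptprc* at 0.762 FPKM on average in WT. Red cell markers (8 genes, *Hbb-y* and *Hba-x* highest) ran from 2623 to 15700 FPKM in WT and from 7931 to 10120 FPKM in mutant buds. Nerve and neural crest markers (8 genes, *Erbb3* and *Tubb3* highest) summed to 19.2 to 24.7 FPKM in WT and 23.3 to 50.9 FPKM in mutant buds, and liver markers (8 genes, *Ttr* and *Afp* highest) to 103 to 184 and 151 to 438 FPKM. Of these, 7 of 8 and 7 of 7 genes tested had a positive log2 difference. All mutant values lay above the WT range in 1 gene of each list, beside 4.46% of all genes. *Ttr* made up 103 of 131 FPKM of the liver sum in WT on average. The paper lists *Afp* as a known TEAD target.

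*Rassf5*, *Rassf6* and *Rassf7* followed the order of the epithelial sum over the 3 mutant buds, highest in replicate 3 and lowest in replicate 2. So did *Rassf9*, but over a narrower span, and *Rassf10* (1.64, 1.28 and 1.84 FPKM), which stayed inside its WT range. None of these genes kept the order of the epithelial sum over the WT buds, where it was highest in replicate 2 (311 FPKM) and lowest in replicate 3 (240 FPKM). *Rassf2* was lowest in mutant replicate 3, as was the mesenchymal sum. Relative to the epithelial sum, a ratio added after the values had been seen, *Rassf9* was at 0.452 to 0.626 FPKM per 100 FPKM of markers in WT and at 1.06, 1.03 and 0.578 in *Lats1/2PanKO* replicates 1 to 3. By this ratio mutant replicates 1 and 2 stood above the WT range and replicate 3 inside it. The same held relative to *Epcam* alone, where WT buds were at 0.0300 to 0.0498 and mutant buds at 0.0896, 0.0846 and 0.0470. *Rassf5* was at 0.300 to 0.827 per 100 FPKM of epithelial markers in WT and at 0.612, 0.489 and 0.494 in mutant buds, inside the WT range. *Rassf6* was at 0.367, 0.324 and 0.284 by the same ratio, below its WT range of 0.368 to 0.625. That depended on the marker, since relative to *Cdh1* alone mutant replicates 1 and 2 (0.0430 and 0.0422) were inside the WT range of 0.0407 to 0.0646. *Rassf7* was at 2.11, 2.01 and 1.37 against 2.60 to 3.32 in WT, and it was below its WT range relative to *Cdh1* and to *Epcam* as well. The paper lists *Sox9*, which is in the epithelial sum, as a known TEAD target. *Sox9* made up 29.0 of 280 FPKM of that sum in WT on average. It was at 64.4, 48.3 and 110 FPKM in mutant replicates 1 to 3. How far the sum follows the amount of epithelium was not tested, nor was the part of cell composition in the *Rassf* differences.

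**Figure D4:**
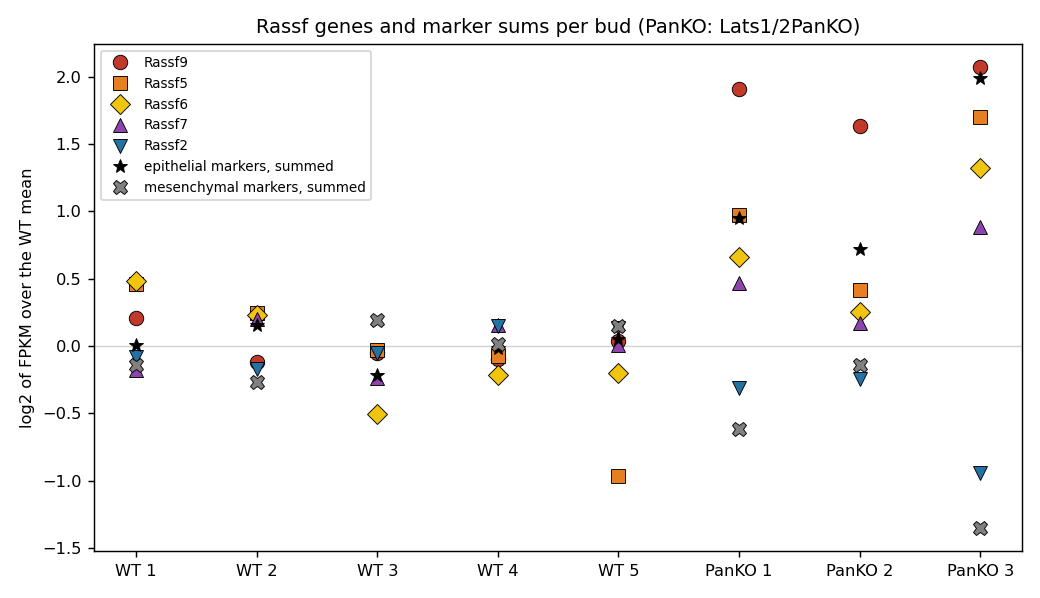
Log2 of each value over its own WT mean, by bud (5 WT, 3 Lats1/2PanKO labelled PanKO), for 5 Rassf genes and for the summed epithelial (stars) and mesenchymal (crosses) markers. Rassf9, Rassf5, Rassf6 and Rassf7 are all highest in PanKO 3, the bud with an epithelial sum of 1110 FPKM, and Rassf9 is clear of its WT values in each mutant bud.

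The genes that varied most like *Rassf9* over the 8 buds, by Pearson's r of log2(FPKM + 1), were *Clu* (r = 0.98), *Eps8l2* (0.97), *Vill* (0.97), *Spp1* (0.97) and *Slc35f5* (0.97). These values describe 8 points that fall into 2 genotypes, so any gene that separates them scores high. *Clu* was the other of the 2 genes called (adjusted p = 0.0253 from limma). The paper lists *Clu* and *Eps8l2* as known TEAD targets. *Vill*, a villin-like actin regulator, had a level of 6.46 ± 0.816 FPKM over the WT buds and 12.4 ± 1.67 FPKM over the mutant buds (both SD), and *Slc35f5*, a predicted transporter, at 7.04 ± 0.333 and 9.42 ± 0.183 FPKM. Within the family r with *Rassf9* was highest for *Rassf5* (0.81) and lowest for *Rassf2* (-0.81).

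Genes of reported RASSF partners and of the Hippo pathway were compared in 4 lists, 43 genes in all, which were all tested. Of these, 18 were taken as Hippo core and TEAD genes, whether or not their products bind RASSF proteins. By adjusted p 0 of them were called (limma, smallest adjusted p 0.109), and 7, or 16.3%, had an unadjusted p under 0.05, 6 higher and 1 lower, beside 11.3% of all genes. Their median log2 difference was 0.05. Of the 3 SARAH partners, 2 had a positive difference and 1 a negative one, with overlapping groups for each. *Stk4*, encoding MST1, differed by 0.18 (standard error 0.10, adjusted p = 0.565 from limma) and *Stk3*, encoding MST2, by 0.03 (standard error 0.07, adjusted p = 0.894 from limma), and by limma 0 of the 3 had an unadjusted p under 0.05. Of 12 Ras-like GTPases, 6 had a positive and 6 a negative difference, with a median of 0.02, and by limma 0 had an unadjusted p under 0.05. Nearest to it were *Rras2* (log2 difference 0.20, standard error 0.10, adjusted p = 0.507 in limma) and *Hras* (0.21, standard error 0.11, adjusted p = 0.548 in limma).

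Of 10 other reported partners, 8 had a positive log2 difference, and 2 had an unadjusted p under 0.05. *Pam*, the amidating enzyme whose protein binds RASSF9, was at 29.2 ± 2.74 FPKM in WT (SD, n = 5) and at 35.0, 29.8 and 45.5 FPKM in mutant buds. Mutant replicate 2 lay inside the WT range of 26.4 to 33.2 FPKM, and the log2 difference of 0.31 (standard error 0.13, adjusted p = 0.419 from limma) was 0.15 without replicate 3. *Pawr*, which encodes the pro-apoptotic PAR-4, was at 15.8 ± 1.96 FPKM in WT (SD, n = 5) and at 21.3, 19.9 and 35.8 FPKM in mutant buds, all above the WT maximum of 18.3 FPKM. It differed by 0.62 on the log2 scale (standard error 0.18, limma adjusted p = 0.279), and by 0.37 without replicate 3.

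In the list of 18 Hippo core and TEAD genes, 10 had a positive and 8 a negative difference, with a median of 0.04. The deleted genes are only a limited check of the labels, since *Lats1* separated the genotypes and *Lats2* did not. *Lats1* was at 15.6 ± 0.905 FPKM in WT (SD, n = 5) and at 12.3, 13.8 and 10.1 FPKM in mutant buds, all below the WT minimum of 14.1 FPKM (log2 difference -0.35 with a standard error of 0.10, limma adjusted p = 0.269). *Lats2* overlapped, at 11.6 to 14.7 FPKM in WT and 13.4, 12.3 and 11.1 FPKM in mutant buds. Gene-level FPKM do not resolve the deleted exons. An unadjusted p under 0.05 was reached by 4 genes with a positive difference, 3 upstream regulators and a TEAD factor, and by *Lats1*. *Frmd6*, encoding the FERM protein Willin, was at 3.85 ± 0.622 FPKM in WT (SD, n = 5) and at 9.02, 6.72 and 12.2 FPKM in mutant buds, a log2 difference of 1.06 (standard error 0.18, adjusted p = 0.109 from limma). It was called without *Lats1/2PanKO* replicate 2. *Wwc1*, encoding KIBRA, differed by 0.94 (standard error 0.24, adjusted p = 0.212 from limma), *Tead4* by 0.86 (standard error 0.24, adjusted p = 0.267 from limma), and *Taok2*, encoding a kinase that acts on MST1/2, by 0.14 (standard error 0.06, adjusted p = 0.419 from limma). Without mutant replicate 3 *Wwc1* was at 0.58 and *Tead4* at 0.51.

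**Figure D5:**
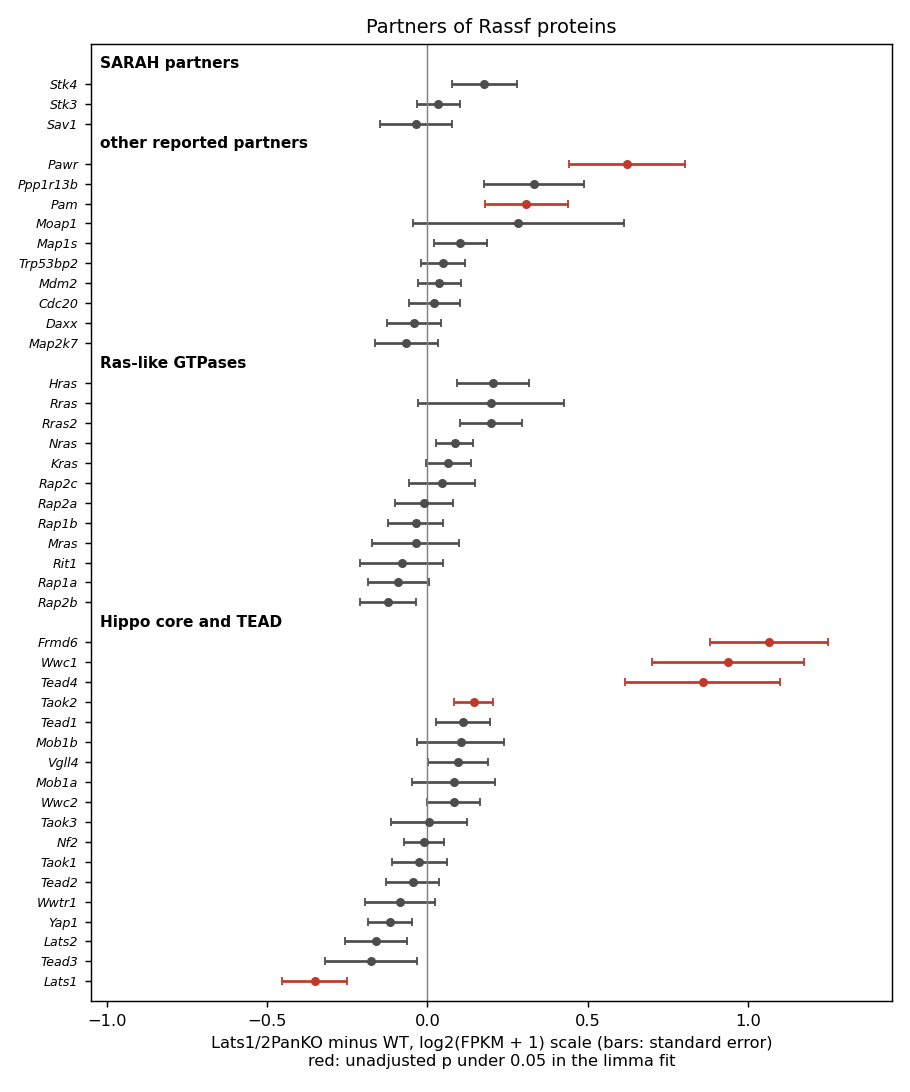
Difference between genotypes on the log2(FPKM + 1) scale, with its standard error from limma, of 43 genes whose products bind RASSF proteins or act in the Hippo core, grouped by list. Red marks the 7 genes with an unadjusted p under 0.05. Frmd6, Wwc1, Tead4 and Pawr lie to the right and Lats1 to the left. MST kinase and Ras-like GTPase genes lie between -0.12 (Rap2b) and 0.21 (Hras), with none in red.

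The methods give an approximate number of reads obtained per sample. The fragments mapped per library and per gene are unknown, because FPKM carry no counts. The number of genes above 0 was 16117 to 16955 in WT and 16498 to 16982 in mutant libraries. A search for the steps that whole fragments leave in low values used genes with 1 exon and 1 annotated transcript. It placed only 19 to 26 of 64 to 76 values per library within 0.05 of a fragment of a step. That was too few to give a mapped depth for each library. No interval or floor is therefore attached to *Rassf5*, *Rassf6*, *Rassf9* and *Rassf10*, the members below 2 FPKM in WT on average.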

How the data were processed

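Total RNA of 8 buds was depleted of ribosomal RNA, made into stranded libraries and sequenced from both ends. The authors trimmed reads (cutadapt 1.12, per the labels), aligned them to GRCm38/mm10 with TopHat 2.1.0 and deposited FPKM per gene from the Cufflinks suite 2.2.1. Their methods mention quantile normalization, but the columns do not share a distribution and were used as deposited. One status entry of the table was not OK. Column codes were matched to samples through the sample descriptions.

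limma 3.58.1 (R 4.3.3) was fitted with a mean-variance trend to log2(FPKM + 1) of 13777 genes whose mean over the 8 libraries reached 0.5 FPKM, with Benjamini-Hochberg adjustment and a threshold of 0.05. The fit was tested on simulated data. Replicates are single buds. Members, gene lists and tests were chosen with earlier results of these data known. Named genes were all members, the deleted genes, partners with an unadjusted p under 0.05 or the 2 smallest p of a list, the 5 genes most like *Rassf9*, its nearest tested neighbours, and the 2 most abundant markers per list. *Cdh1*, *Epcam*, *Sox9*, *Msln*, *Ptprc*, *Tead1*, *Tusc2*, *Afm* and the overlapping *8430408G22Rik* fall outside this rule and were chosen after their values were seen. The alternatives left out each library in turn, added a replicate block or library weights, dropped the trend, rescaled the columns by quantiles or by median ratios, took 0.1 as pseudocount, filtered at 2 FPKM or not at all, and used medians for the summed FPKM. Ratios to epithelial markers were added after seeing the data. Protein sequences were not analysed here. Figures used matplotlib 3.10.9.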

Additional observations from a re-analysis of the deposited data

Results flagged for a closer look

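Of 37 sets of 5 WT values examined (members, their sums, marker sums and named genes), 3 had a bud far from the other 4 by Dixon's criterion, where about 1 in 20 is flagged by chance. All 3 involve WT replicate 5, which had *Frmd6* at 2.77 FPKM against 4.00 to 4.37 in the other WT buds, *Lats2* at 11.6 FPKM against 13.96 to 14.7, and *Spp1* at 8.78 FPKM against 2.73 to 4.36. No *Rassf* gene was among the 3.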

How the results depend on the processing

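The difference of *Rassf9* was positive in all 16 alternatives, from 1.30 without *Lats1/2PanKO* replicate 3 to 1.81 with a pseudocount of 0.1, and 1.30 to 1.49 with single libraries left out, and *Rassf9* was called in 10 of the 16. It was not called with the replicate block (log2 difference 1.38, limma adjusted p = 0.451, where the 1 gene called was *Mir6357*, named after its value was seen), nor without WT replicate 1, 2, 3 or 5 or *Lats1/2PanKO* replicate 1 (limma adjusted p of 0.0554 to 0.106). The 2 genes called in all became 18 with a pseudocount of 0.1, 174 with library weights, 1 with no trend, 1 with the replicate block, and 0 to 69 with libraries left out (0 without WT replicate 1, 2, 3 or 5, 69 without *Lats1/2PanKO* replicate 2). Genes at an unadjusted p under 0.05, 1553 in all, were 2578 with library weights and 781 to 2018 with libraries left out. Members outside the WT range, 2 in all, were 2 to 5 with libraries left out, while the share of all genes outside it went from 7.51% to 9.23% to 19.4%. Called partner genes, 0 in all, were 1 (*Frmd6*) with library weights and 0 to 1 with libraries left out. Deviations from the group means of same-numbered buds correlated with r of 0.09, -0.10 and 0.07 across genes, so the numbers were not taken to pair the buds. *Rassf6* and *Rassf10* could not be fitted at a minimum mean of 2 FPKM. The differences in both summed FPKM kept their sign in all 11 alternatives each, at 0.641 to 2.17 FPKM for *Rassf1* to *Rassf6* and 5.66 to 7.20 FPKM for *Rassf7* to *Rassf10*. The second of these sums includes *Rassf9*.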

Other observations

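Neighbouring genes of other members give a view of their surroundings. *Rassf10* lies 47156 bases from *Tead1*, the nearest tested gene on one side, with log2 differences of 0.16 (standard error 0.17) for *Rassf10* and 0.11 (standard error 0.08) for *Tead1*. *Rassf1* lies 987 bases from *Tusc2*, which was at 12.1 FPKM in WT and 12.8 FPKM in mutant buds on average. *Rassf6* has *Afm*, a gene of the albumin family, as a tested neighbour at 49531 bases, with means of 0.371 and 1.36 FPKM (log2 difference 0.62, standard error 0.32, adjusted p = 0.518 from limma). These neighbours were picked after their values had been seen. Among WT buds *Rassf5* varied most of the members, with a coefficient of variation of 32.2%, and *Rassf3* least, with 5.45%.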
